A study of Mus musculus with 2 samples.

Results

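Neurotensin (Nts) and the genes of its 2 G protein-coupled receptors, Ntsr1 and Ntsr2, were followed across the cells of the mouse preoptic area, a hypothalamic region that holds sleep-active and temperature-regulating neurons. These 3 genes were picked by symbol from the 31054 genes listed for each library, and no measured value entered that choice. One library came from C57BL/6J mice deprived of sleep for 6 h (SD), and the other from C57BL/6J mice given 2 h of recovery sleep after the same 6 h of deprivation (SD+RS). All mice were given as wild type and were 9 to 10 weeks old, and tissue from males and females was pooled. YFP, a reporter transcript, is among the leading genes of a cluster in the authors' deposited SD table, and its source was not examined. The droplet libraries were made by Act-seq, a dissociation method meant to limit gene induction during handling. No library of undisturbed mice was analysed here, so a difference between the libraries has no resting level beside it. Each condition is 1 library, so no difference below has a replicate check and no p-value is given. Every interval is a 95% interval for counting error only.

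Neurotensin is a secreted peptide that acts as a transmitter and neuromodulator, and in the hypothalamus it is known for lowering body temperature and for effects on feeding and arousal. It is cut from a precursor by prohormone convertases at pairs of basic residues, together with the related peptide neuromedin N. NTSR1, coupled mainly to Gq proteins, is the high-affinity receptor, and NTSR2 has lower affinity and is known from astrocytes. Sortilin, encoded by Sort1, also binds the peptide.

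Nts (ENSMUSG00000019890) lies on the minus strand at chr10:102481756-102490486 of mm10, Ntsr1 (ENSMUSG00000027568) on the plus strand at chr2:180499976-180544980, and Ntsr2 (ENSMUSG00000020591) on the plus strand at chr12:16653382-16660227. No other annotated gene overlaps any of the 3, so their reads do not have to be divided with a neighbour. The stretch below shows where the ligand sits in its own message. It covers codons 140 to 164 of the 169 in the Nts precursor, in exon 4 of 4 (coding sequence, mm10 chr10:102482349-102482423, minus strand, 75 bases from the GENCODE transcript). Capitals mark the 6 codons of neuromedin N and then the 13 codons of neurotensin, and the lower-case triplets between and around them are the paired lysine and arginine codons at which the precursor is cut.
Nts peptide codons: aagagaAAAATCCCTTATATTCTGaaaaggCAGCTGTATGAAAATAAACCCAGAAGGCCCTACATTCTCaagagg
The bases upstream of the gene are shown because immediate early genes, several of which encode subunits of the AP-1 transcription factor, are compared in Nts neurons further on. They are the 182 bases of the RefSeq promoter window that lie before the GENCODE start of the gene (GRCm38.p6 chr10:102490487-102490668, minus strand), with the match to the AP-1 motif in capitals.
Nts upstream bases: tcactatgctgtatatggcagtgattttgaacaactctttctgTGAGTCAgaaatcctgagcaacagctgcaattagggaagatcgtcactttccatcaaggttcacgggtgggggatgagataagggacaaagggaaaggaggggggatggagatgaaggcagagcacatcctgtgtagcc
AP-1 was searched as TGANTCA and the cyclic AMP response element as TGACGTCA, each on both strands. The Nts window held 1 AP-1 match, 139 bases before that start and 207 before the RefSeq start, and no match to the other motif. Every RefSeq promoter window was cut to its 182 bases farthest upstream, so the bases nearest each RefSeq start were not searched. In that part, 4.96% of all 32851 windows held an AP-1 match and 0.609% the other motif. Neither motif was found in that part of the Ntsr1 or Ntsr2 windows. The matches are letters in a window and say nothing about binding.

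The SD library held 10262 cell barcodes with a median of 7534 unique molecular identifiers (UMIs, each a counted transcript) and the SD+RS library 8106 barcodes with a median of 14774. After filters on genes per cell, mitochondrial share and doublets, 9297 and 7415 cells were kept, and the libraries shared 23 barcodes. Neurons numbered 3868 in SD and 4298 in SD+RS, with median depths of 21887 and 21220 UMIs, and astrocytes numbered 2095 and 1274, with median depths of 3444 and 3140 UMIs. All 6 neuronal markers were detected in 82.8% to 99.7% of neurons, and all 7 astrocyte markers in 81.0% to 100% of astrocytes. The sexes were unevenly mixed: of the neurons with UMIs of only Xist or only Y-linked genes, 38.8% carried Xist in SD and 77.4% in SD+RS. Different clusters held most astrocytes in each library, with 1775 of the SD astrocytes in one cluster (number 0) and 1096 of the SD+RS astrocytes in another (number 2). A shallow neuron-like cluster of 556 SD and 63 SD+RS cells was left without a class and is not among the neurons. Levels below are in CPM, the UMIs of a gene in every 1000000 UMIs of its class or cluster.

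The ligand and its receptors were divided between cell classes. Nts and Ntsr1 were neuronal transcripts, and Ntsr2 was an astrocyte transcript. Neurons held 97.1% of all Nts UMIs in SD and 99.2% in SD+RS, and 93.9% and 99.5% of all Ntsr1 UMIs. They were 41.6% and 58.0% of kept cells. The shallow neuron-like cluster, not counted among them, held 928 of 52840 Nts UMIs and 31 of 703 Ntsr1 UMIs in SD. In SD+RS it held 28 of 65420 and 0 of 665. Astrocytes held 95.9% and 96.8% of all Ntsr2 UMIs. The division was the same in both libraries.

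**Figure D1:**
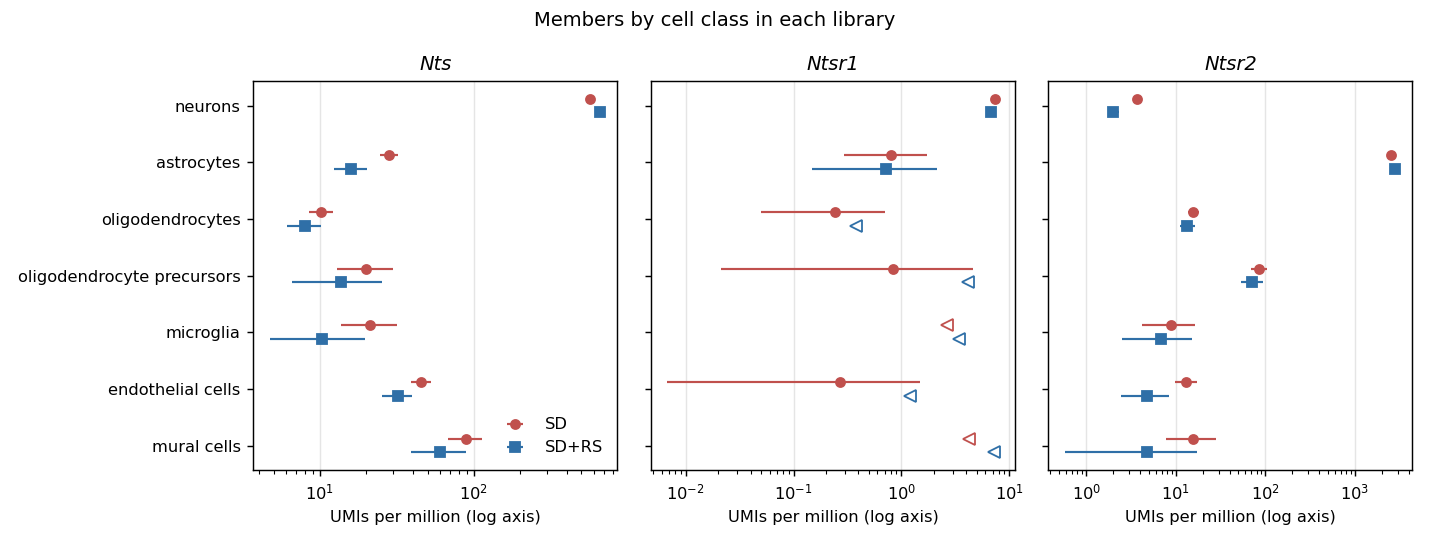
Level of each gene (x, CPM of the class, log axis) in 7 cell classes (y), with SD as red circles and SD+RS as blue squares; bars are exact Poisson 95% intervals and open arrows stand at the level that 3 UMIs would give where none was counted. Nts and Ntsr1 peak in neurons and Ntsr2 in astrocytes, where it stood at 2529 and 2813 CPM.

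Nts, the peptide precursor, was counted 51282 times in SD neurons and 64898 times in SD+RS neurons. Its level was 570.3 CPM (565 to 575) in SD and 662 CPM (657 to 667) in SD+RS, a log2 ratio of SD+RS over SD of 0.22 (0.20 to 0.23). That is under the 1.5-fold difference used here to name a change, which 0.731% of the 13810 genes with at least 50 UMIs in the neurons of both libraries passed upward and 1.54% passed downward. The ratio moved with the makeup of the neurons. With every neuron cluster held at its mean share of both libraries it was 0.062 (603 and 629 CPM), and it was 0.46 among cells with Xist UMIs only (463 and 639 CPM) and 0.16 among cells with Y-linked UMIs only (632 and 706 CPM). In both libraries the cells with Y-linked UMIs therefore carried the higher Nts level, and the parts of sex mix, cluster mix and sleep state in the pooled ratio cannot be told apart.

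Most of the message was in a minority of neurons. Neurons with 20 or more Nts UMIs, called Nts-rich below, were 530 of 3868 in SD (13.7%) and 698 of 4298 in SD+RS (16.2%), and they held 91.4% and 92.2% of neuronal Nts. The highest single cell had 957 UMIs in SD and 701 in SD+RS. At the other end, 62.4% and 63.7% of neurons had no Nts UMI. At least 1 UMI was found in 37.6% (36.1 to 39.2) of SD neurons and 36.3% (34.9 to 37.8) of SD+RS neurons, and after thinning each cell to 2000 UMIs the shares were 20.8% and 23.1%, with 45 and 11 shallower neurons left out. Among astrocytes, which should lack the gene, 9.16% in SD and 5.02% in SD+RS had a UMI at their lower depth. A neuron with a single UMI is therefore not counted here as an Nts neuron.

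**Figure D2:**
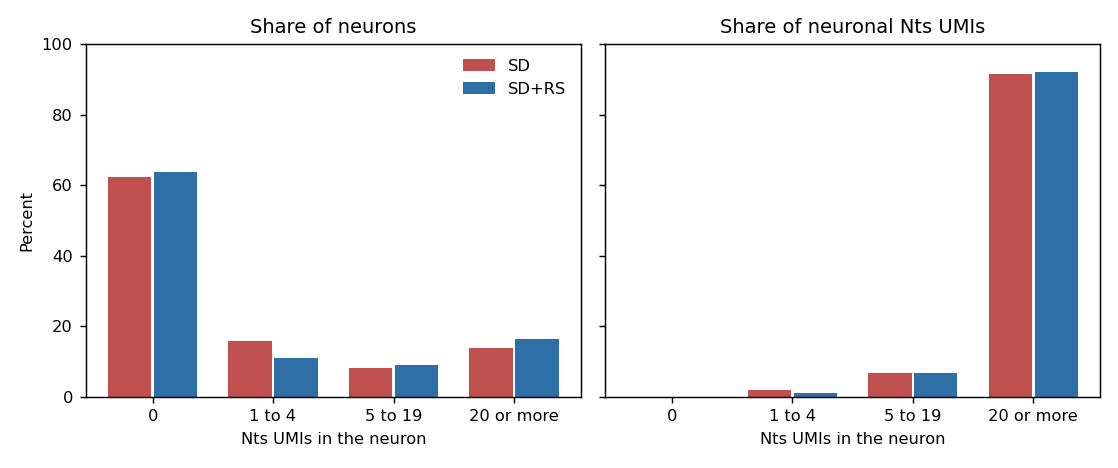
Share of neurons (left) and share of all neuronal Nts UMIs (right), in percent, by the number of Nts UMIs in the neuron, for SD (red) and SD+RS (blue). The class with 20 or more UMIs held 13.7% and 16.2% of neurons but 91.4% and 92.2% of the Nts UMIs.

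Nts neurons were mainly GABAergic. Clusters were called GABAergic where the GABA genes Slc32a1, Gad1 and Gad2 together exceeded the glutamate transporter genes, and glutamatergic otherwise. GABAergic clusters held 96.5% of neuronal Nts in SD and 95.2% in SD+RS, at 718 and 826 CPM. Glutamatergic clusters stood at 86.6 and 134.7 CPM. Some calls were close. Neuron cluster number 3 was called glutamatergic at 386 CPM against 358 CPM of GABA genes. It held 753 of the 1821 Nts UMIs of glutamatergic clusters in SD and 1628 of the 3129 in SD+RS. Numbers 26 and 29 were called GABAergic at 328 against 278 CPM and 325 against 246 CPM. Slc32a1, the vesicular GABA transporter, was detected in 92.8% and 90.8% of neurons with 20 or more Nts UMIs and in 63.1% and 62.0% of neurons with none. Slc17a6, the vesicular glutamate transporter, was detected in 10.2% and 9.74% of the former and 34.8% and 35.7% of the latter. The former were deeper, with medians of 27108 and 25108 UMIs against 20934 and 20082, and the shares given here are not thinned. In CPM, Slc32a1 stood at 174 and 172 against 126 and 123, and Slc17a6 at 26.7 and 34.6 against 119 and 119. The Nts-rich neurons often carried other peptide precursors. Gal (galanin) reached 5 or more UMIs in 54.5% and 50.1% of the Nts-rich neurons and in 14.0% and 14.9% of neurons without Nts. Tac2 (neurokinin B) did so in 32.5% and 27.1% against 8.21% and 8.73%, and Grp (gastrin-releasing peptide) in 10.2% and 6.30% against 1.62% and 1.5%. Other precursors were less frequent in the Nts-rich neurons. Sst (somatostatin) reached that count in 1.13% and 0.716% of them against 4.81% and 5.48%, Adcyap1 in 0.943% and 0.86% against 8.08% and 8.84%, Bdnf in 1.7% and 1.58% against 8.42% and 8.22%, and Trh in 0.943% and 0.716% against 6.76% and 5.7%. Of the 18 peptide genes, 7 were by this share more frequent in Nts-rich neurons in both libraries and 9 less frequent in both. The other 2 (Tac1 and Pdyn) differed in direction between the libraries. These shares are not corrected for depth. In CPM, Tac1 stood higher in Nts-rich neurons in both libraries, at 199 and 128 against 118 and 111. Pdyn stood lower in both, at 15.7 and 11.5 against 18.0 and 17.3.

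Across the 31 neuron clusters with at least 50 cells in each library, of 45 in all, Nts ranged from 5.01 to 4382 CPM in SD and from 3.36 to 4600 CPM in SD+RS. The 3 genes were kept out of the clustering, though Nts can stand among a cluster's leading genes. The highest was the GABAergic cluster led by Nts and Grp (number 4), with 4382 CPM (4318 to 4447) in 148 SD cells and 4600 CPM (4542 to 4658) in 205 SD+RS cells. In it, 86.5% and 88.3% of cells had 20 or more Nts UMIs. Second was a cluster led by Vip, Ntng1 and Penk (number 9) at 2196 and 1848 CPM, followed by a cluster led by Crh, Foxp2 and Zeb2 (number 5) at 1579 and 1565 CPM. These 3 kept their order in both libraries, and their intervals did not overlap. The cluster led by Tac2, Amigo2 and Gal (number 25), whose leading genes also include Cartpt, stood at 1209 and 1141 CPM, and one led by Foxp2, Zeb2 and Serpinb1b (number 13) at 734 and 1236 CPM. Those positions were not stable: number 25 ranked 4 in SD and 5 in SD+RS, and number 13 ranked 7 and 4. A second Nts- and Grp-led cluster had only 31 and 42 cells and is not in the ranking, but its level was 3488 and 3816 CPM.

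**Figure D3:**
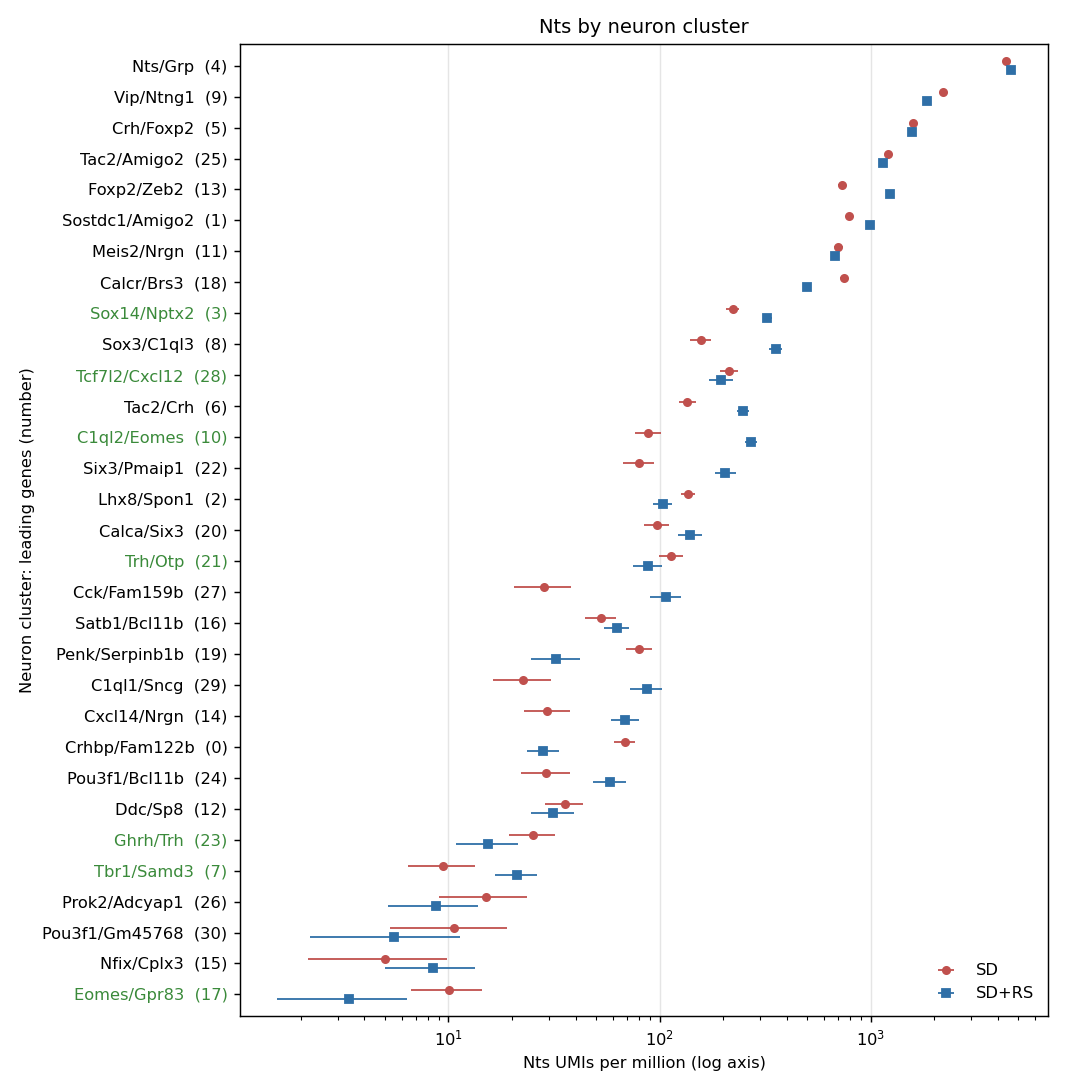
Nts level (x, CPM, log axis) in the 31 neuron clusters with at least 50 cells per library (y, leading genes and cluster number; black GABAergic, green glutamatergic), SD as red circles and SD+RS as blue squares with Poisson 95% intervals. The 3 highest clusters, at 1565 to 4600 CPM, differ little between libraries, and wider gaps lie lower on the scale.

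Between the libraries, Nts was at least 1.5-fold higher in SD+RS in 10 of the 31 clusters and at least 1.5-fold lower in 5, each with an interval excluding no difference. Counting only the 23 clusters with 50 or more Nts UMIs in both libraries, it was higher in 7 and lower in 3. Over all 195620 pairs of a gene and one of the 31 clusters with that many UMIs, 0.727% were called higher and 1.41% lower. Of 203 such pairs for 18 other peptide genes, 35 were higher and 50 lower, or 41.9%, against 43.5% for Nts. The count differed from gene to gene: it was 12 of 22 clusters for Gal, 11 of 16 for Tac1, 8 of 23 for Cartpt, 6 of 23 for Oxt, 5 of 18 for Penk, 1 of 9 for Bdnf and 0 of 4 for Trh.

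Among the 8 clusters with the most Nts, 1 was higher and 1 lower past 1.5-fold. In the Foxp2, Zeb2 and Serpinb1b cluster the level went from 734 CPM in SD to 1236 CPM in SD+RS (log2 ratio 0.75, 0.67 to 0.84), and cells with 20 or more UMIs went from 29.8% to 45.5%. In a cluster led by Calcr, Brs3 and Prok2 (number 18) it went from 748 to 499 CPM (log2 ratio -0.59, -0.68 to -0.49), and the share of such cells from 37.0% to 24.5%. The top 3 clusters stayed within a log2 ratio of -0.25 to 0.07. Larger ratios were found at lower levels. The glutamatergic cluster led by C1ql2, Eomes and Slc17a6 (number 10) went from 88.5 to 271 CPM (log2 ratio 1.61, 1.39 to 1.84), with 55.9% of its SD UMIs and 41.8% of its SD+RS UMIs in its 5 highest cells. The clusters led by Sox3 and C1ql3 (number 8), Tac2 and Crh (number 6), Six3 and Pmaip1 (number 22), Cck and Fam159b (number 27), C1ql1 and Sncg (number 29), Cxcl14 and Nrgn (number 14), Pou3f1 and Bcl11b (number 24) and Tbr1 and Samd3 (number 7) were higher by log2 ratios of 0.88 to 1.94. Those led by Penk and Serpinb1b (number 19), Crhbp and Fam122b (number 0), Ghrh and Trh (number 23) and Eomes and Gpr83 (number 17) were lower, with log2 ratios of -1.58 to -0.70. Apart from number 8, at 157 and 355 CPM, none of the clusters in these lists exceeded 271 CPM in either library.

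Many of these clusters rest on a few cells. In SD+RS a single cell held 55 of the 75 Nts UMIs of number 7, 121 of the 164 of number 14 and 124 of the 129 of number 29, while the share of cells with an Nts UMI was lower than in SD, at 8.63% against 18.8%, 13.3% against 16.8% and 10.2% against 16.7%. As an alternative chosen after seeing the data, the ratios were computed without the cell with the most Nts UMIs in each cluster and library. Of the 10 clusters that were higher, 7 kept the call and these 3 lost it, with log2 ratios of -0.55 (-1.46 to 0.34), 0.070 (-0.59 to 0.74) and -0.94 (-2.80 to 0.67) in place of 1.16, 1.23 and 1.94. Of the 5 that were lower, numbers 0 and 19 kept the call. Number 18 went to -0.53 (-0.63 to -0.44), just inside 1.5-fold, and numbers 17 and 23 went to -0.65 and -0.52 with intervals reaching above 0. Numbers 3, 16 and 20, which had not passed, became higher at 0.60, 1.69 and 0.81. Without those cells the Foxp2, Zeb2 and Serpinb1b cluster stood at 0.78 and the C1ql2, Eomes and Slc17a6 cluster at 1.62.

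Core immediate early genes, a sum of 14 genes that rise within minutes of neuronal activity (Fos, Fosb, Junb, the Egr genes and others), did not follow one direction in Nts neurons. Among neurons with 20 or more Nts UMIs the sum was 173.9 CPM (167 to 181) in SD and 186 CPM (180.3 to 193) in SD+RS, a log2 ratio of 0.10 (0.03 to 0.17). Neurons with no Nts UMI stood at 250.2 and 255 CPM. Fos itself was detected in 24.5% (20.9 to 28.4) of the Nts-rich neurons in SD and 35.7% (32.1 to 39.3) in SD+RS, and in 30.4% and 32.5% of neurons without Nts. Without the Tac2, Amigo2 and Gal cluster the pooled ratio was -0.33 (189.6 and 150.4 CPM), and no other cluster was taken out in turn. It was also -0.28 among cells with Y-linked UMIs only and -0.13 among neurons with 40 or more Nts UMIs.

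Within clusters the Nts-rich neurons differed widely, and in opposite directions. In the Tac2, Amigo2 and Gal cluster, the sum was 49.98 CPM in 49 SD cells and 671 CPM in 40 SD+RS cells (log2 ratio 3.75, 3.42 to 4.09), and Fos was detected in 10.2% and 95% of them. In the Nts and Grp cluster, the largest group of Nts-rich cells with 128 and 181, it was 54.5 and 128 CPM (log2 ratio 1.23, 1.0 to 1.47), with Fos in 10.2% and 32.6%. The Sostdc1, Amigo2 and Gal cluster (number 1) and the Calcr, Brs3 and Prok2 cluster were also higher in SD+RS, by 0.43 and 0.63. The opposite order held in the Crh, Foxp2 and Zeb2 cluster, at 341 CPM in SD and 136 CPM in SD+RS (log2 ratio -1.33, -1.54 to -1.12), and in the Meis2, Nrgn and Rprml cluster (number 11), at 1405 and 349 CPM in only 20 and 23 cells (log2 ratio -2.01). The Vip and the Foxp2 clusters were lower by -0.63 and -0.66. Of the 8 clusters with at least 20 Nts-rich cells per library, 4 were thus higher and 4 lower. Cells of the same clusters with fewer than 20 Nts UMIs gave the same order of the libraries in all 8, for example 54.0 and 959.8 CPM in the Tac2, Amigo2 and Gal cluster and 85.1 and 96.9 CPM in the Nts and Grp cluster.

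**Figure D4:**
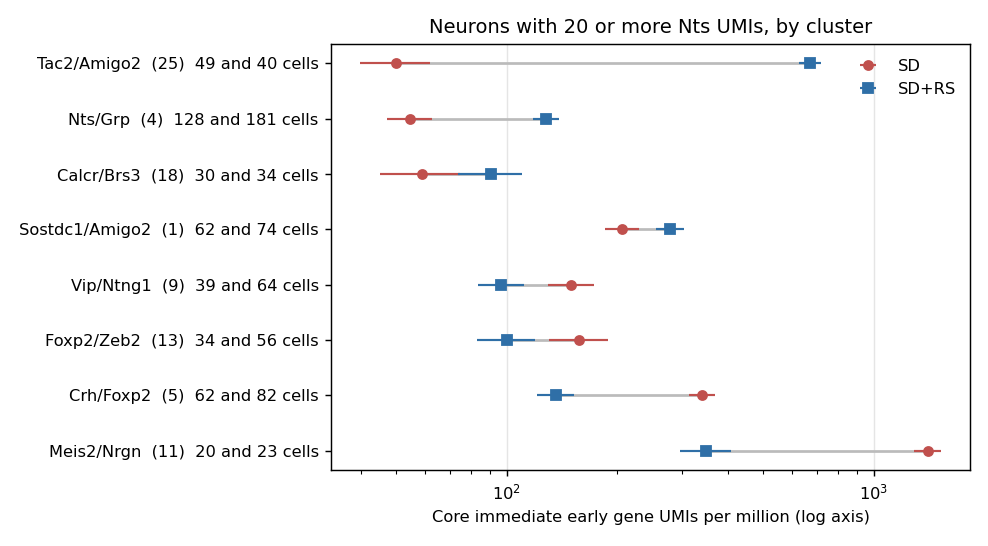
Summed core immediate early genes (x, CPM, log axis) in neurons with 20 or more Nts UMIs, in the 8 clusters with at least 20 such cells per library (y, with cell numbers in SD and SD+RS); bars are Poisson 95% intervals. SD+RS (blue squares) lies above SD (red circles) in 4 clusters and below it in 4.

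Outside neurons, Nts was low in UMIs per cell but uneven. Astrocytes, oligodendrocytes, their precursors and microglia had 0.0902 to 0.108 Nts UMIs per cell in SD and 0.0518 to 0.0762 in SD+RS. Snap25, a neuronal synaptic gene, was also lower in SD+RS astrocytes, at 0.418 and 0.179 UMIs per cell, and the part of such stray neuronal RNA in these values was not tested. Endothelial cells had 0.273 and 0.188 and mural cells 0.294 and 0.205 Nts UMIs per cell. These vascular values came from particular clusters. A mural cluster led by Vtn, Myl9 and Ndufa4l2 (number 20), with Kcnj8, a gene known from pericytes, at 3.70 and 3.53 UMIs per cell, had 0.467 and 0.449 Nts UMIs per cell (174 and 190.4 CPM), and 24.6% (17.2 to 33.2) and 30.6% (18.3 to 45.4) of its cells had a UMI. In CPM, number 20 stood above the median of the 31 neuron clusters, 88.5 and 107 CPM, at its lower median depth of 2545 and 2248 UMIs. Cluster number 18, named endothelial, had 0.770 and 0.481 Nts UMIs per cell. It held 124 of the 170 endothelial Nts UMIs in SD and 64 of the 80 in SD+RS. It carried Cldn5 at 34.0 and 34.0 UMIs per cell, and Kcnj8 at 3.30 and 2.93. Other mural markers were present too, Rgs5 at 36.6 and 40.9 and Vtn at 46.9 and 49.6. Its median depth was 8849 and 8208 UMIs, against 3539 and 3187 in number 9. Whether its barcodes mix endothelial and mural cells was not tested. By contrast, the main endothelial cluster (number 9, Kcnj8 at 0.0694 and 0.0137) had 0.0998 and 0.0548, and the Acta2-led mural cluster (number 21, Kcnj8 at 0 and 0.0685) had 0.0562 and 0.0411. Gal, another abundant peptide message, was at 0.0514 to 0.143 UMIs per cell in all 4 clusters, and Snap25 was at 0.102 to 0.475 in them. The vascular clusters were picked out after their values were seen, and the highest cell had 11 Nts UMIs in each of the 2 Kcnj8-carrying clusters of SD.

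Ntsr1, the high-affinity receptor, was sparse. It was counted 660 times in SD neurons and 662 times in SD+RS neurons, at 7.34 CPM (6.79 to 7.92) and 6.76 CPM (6.25 to 7.29). The log2 ratio was -0.12 (-0.28 to 0.04), an interval that includes no difference and leaves out a change of 1.5-fold. Among cells with Xist UMIs only it was -0.24 (-0.47 to -0.02), and among cells with Y-linked UMIs only 0.10 (-0.19 to 0.38). A UMI was found in 10.7% (9.77 to 11.7) and 10.6% (9.66 to 11.5) of neurons, against 0.286% and 0.235% of the shallower astrocytes, and thinning to 2000 UMIs left 1.33% and 1.07% of neurons. No other class exceeded 0.833 CPM, and no UMI was counted in microglia or mural cells of either library, which allows up to 2.66 to 7.20 CPM by 3 counts. Of the 7 classes, neurons alone had more than 6 Ntsr1 UMIs in a library.

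The Ntsr1 level was highest in the GABAergic cluster led by Lhx8, Spon1 and Cartpt (number 2), which also has Drd2 among its leading genes. It stood at 34.8 CPM (29.5 to 40.8) in SD and 36.4 CPM (30.6 to 42.9) in SD+RS, with a UMI in 46.7% and 47.5% of its 199 and 177 cells. Its interval overlapped none of the others in SD, and in SD+RS it overlapped only that of the next cluster. That cluster, led by Pou3f1, Gm45768 and Adarb2 (number 30, with Shh and Lhx8), had 18.3 CPM (11 to 28.6) and 22.8 CPM (15.3 to 32.7). The Sox14, Nptx2 and Slc17a6 cluster (number 3) had 18.6 and 12.7 CPM, the Nfix, Cplx3 and Nfib cluster (number 15) 15.7 and 8.93 CPM, and the Tcf7l2, Cxcl12 and Fst cluster (number 28) 13.4 and 8.53 CPM, all with intervals that overlap those of their neighbours in the order. That order is by the mean of both libraries. In SD+RS, numbers 6 (9.98 CPM), 18 (9.67 CPM), 20 (9.36 CPM) and 1 (9.08 CPM) stood above numbers 15 and 28. A small cluster led by the cholinergic genes Slc5a7 and Slc18a3 (number 44), below the size limit and noticed after its values were seen, had Ntsr1 UMIs in 6 of 7 cells in SD and all 11 in SD+RS, at 57.9 CPM (39.0 to 82.6) and 54.8 CPM (39.7 to 73.9).

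**Figure D5:**
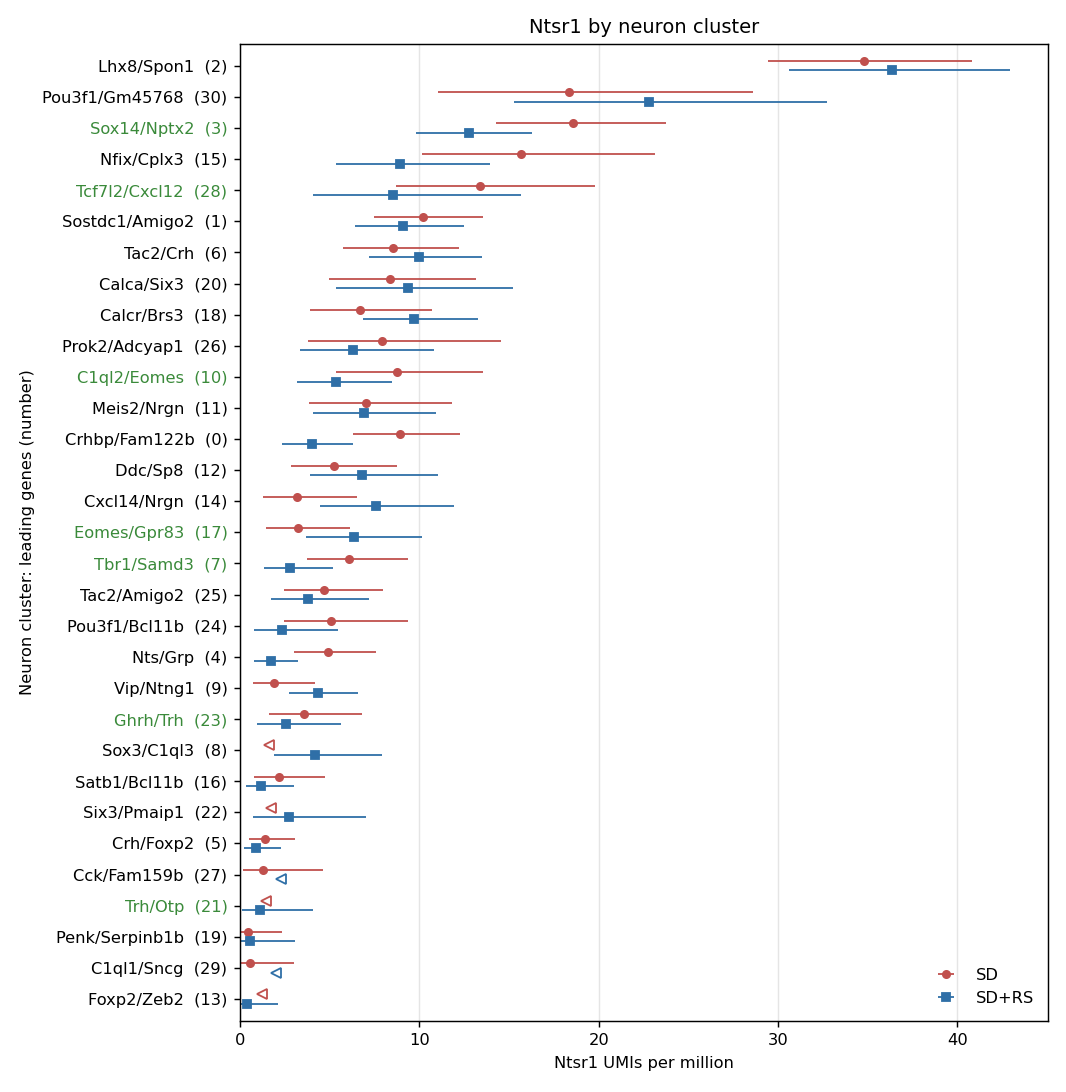
Ntsr1 level (x, CPM) in the same 31 neuron clusters (y, leading genes and number; black GABAergic, green glutamatergic), SD as red circles and SD+RS as blue squares with Poisson 95% intervals; open arrows mark the level of 3 UMIs where none was counted. The Lhx8, Spon1 and Cartpt cluster stands highest in both libraries at 34.8 and 36.4 CPM.

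Of the 31 clusters, 2 had a lower Ntsr1 level in SD+RS past 1.5-fold and none a higher one, both on few counts. In the Nts and Grp cluster 20 UMIs in SD (4.90 CPM) stood against 9 in SD+RS (1.70 CPM), a log2 ratio of -1.52 (-2.84 to -0.32). In the Crhbp, Fam122b and Ramp3 cluster 38 UMIs (8.92 CPM) stood against 18 (3.99 CPM), a log2 ratio of -1.16 (-2.05 to -0.31). Ligand and receptor were then set side by side. Among neurons with 5 or more Nts UMIs, 11.1% (9.07 to 13.4) in SD and 10.4% (8.68 to 12.4) in SD+RS had an Ntsr1 UMI, and among the other neurons 10.6% and 10.6% did. The former were deeper, with a median of 25097 and 24122 UMIs against 21119 and 20268. Per UMI counted, Ntsr1 stood at 5.38 and 3.87 CPM in neurons with 20 or more Nts UMIs and at 7.65 and 7.14 CPM in those with none. The clusters with the most Nts differed in Ntsr1. The Crh, Foxp2 and Zeb2 cluster had 1.42 and 0.891 CPM, on 6 and 4 UMIs, and the Foxp2, Zeb2 and Serpinb1b cluster had 0 and 1 UMI. Number 9 had 1.92 and 4.36 CPM, and number 25 had 4.65 and 3.78 CPM. Number 1 had 10.2 and 9.08 CPM, number 11 had 7.03 and 6.90 CPM, and number 18 had 6.67 and 9.67 CPM. All neurons together stood at 7.34 and 6.75 CPM. The highest Ntsr1 cluster had Nts at 137 and 103 CPM.

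Ntsr2, the low-affinity receptor, was counted 18978 times in SD astrocytes and 11646 times in SD+RS astrocytes, at 2529 CPM (2493 to 2565) and 2813 CPM (2762 to 2865). Nearly every astrocyte carried it, 99.5% in SD and 99.6% in SD+RS, with a median of 9 UMIs per cell in both. The log2 ratio of 0.15 (0.12 to 0.19) was well under 1.5-fold, which 3.01% of 8606 astrocyte genes passed upward and 3.18% downward. It pointed the same way in each of the 4 astrocyte clusters, at 0.13, 0.10, 0.33 and 0.11, with an interval that reaches below 0 in the last of them (number 25, 87 and 27 cells). Restricted to astrocytes with Xist and no Y-linked UMIs it was 0.17 (0.12 to 0.21), and to those with Y-linked and no Xist UMIs 0.045 (-0.03 to 0.12). Ntsr2 was among the 10 leading genes of all 4 astrocyte clusters, at different levels. The lowest was number 25 in both libraries, with 2203 CPM (2080 to 2332) in SD and 2375 CPM (2144 to 2623) in SD+RS. The highest was number 2 in SD, at 2635 CPM (2476 to 2801), and number 19 in SD+RS, at 3285 CPM (2943 to 3656), and these intervals do not overlap those of number 25.

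Oligodendrocyte precursors also carried Ntsr2, at a low level. It stood at 85.0 CPM (69.3 to 103) in SD and 71.3 CPM (53.2 to 93.5) in SD+RS, with a UMI in 28.9% and 23.4% of 266 and 175 cells. Oligodendrocytes had 15.7 and 13.5 CPM, microglia 8.86 and 6.89 CPM, endothelial cells 13.1 and 4.80 CPM, and neurons 3.69 and 2.01 CPM. These values were set beside Agt, the astrocyte gene for angiotensinogen. In astrocytes the ratio was 71.2 and 64.8 Ntsr2 UMIs per 100 Agt UMIs, in neurons 103.8 and 82.8, and in oligodendrocytes 105 and 122. In the precursors it was 1133 and 1300, from 102 and 52 Ntsr2 UMIs against only 9 and 4 of Agt. No other class exceeded 200, a value reached in SD+RS microglia and mural cells on 3 and 1 Agt UMIs. The part of stray astrocyte RNA in these values was not tested.

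In neurons Ntsr2 stood lower in SD+RS, with 332 and 197 UMIs (log2 ratio -0.88, -1.14 to -0.62) and a UMI in 6.13% and 2.79% of cells. Agt moved with it, from 0.0827 to 0.0554 UMIs per neuron, and so did Gja1, from 0.0419 to 0.0193. A cluster of 20 and 13 cells led by the astrocyte genes Apoe and Sparc (number 39) held 99 and 79 of the neuronal Ntsr2 UMIs. An alternative chosen after seeing the data left out neuron clusters with at least 2 astrocyte or oligodendrocyte markers among their 8 leading genes. Number 39 was among those left out. The log2 ratio was then -1.10 (-1.43 to -0.78), at 2.60 and 1.21 CPM. In CPM the level in neurons was below that in microglia, which should lack the gene. Per cell it was above, at 0.0858 and 0.0458 UMIs against 0.0450 and 0.0355. With called doublets kept, neurons stood at 13.4 and 7.74 CPM. Whether these UMIs come from the neurons themselves was not tested. Clusters 1, 6 and 25 had lower Ntsr2 in SD+RS past 1.5-fold on 1 to 16 UMIs each.

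Other genes of neurotensin handling and signalling were counted in the same way. Of 23 genes in 4 lists (sortilin family receptors, precursor processing, peptidases, Gq signalling), 22 had at least 50 UMIs in the neurons of both libraries. None of these passed 1.5-fold in either direction, against 0.731% of all neuronal genes upward and 1.54% downward, and their median log2 ratio was -0.02, as for all genes. Sort1 stood at 29.7 and 27.7 CPM in neurons and at 52.2 and 48.3 CPM in astrocytes. The convertase genes Pcsk1 and Pcsk2, which cut peptide precursors, stood at 30.9 and 29.7 CPM and at 88.8 and 90.9 CPM in neurons. Thop1 and Nln, which encode peptidases that degrade neurotensin, stood at 28.9 and 32.2 CPM and at 16.1 and 15.7 CPM. In astrocytes 16 of the 23 were measured, none was higher and 1 was lower: Plcb1, a phospholipase C downstream of Gq, at 359.9 CPM in SD and 209 CPM in SD+RS (log2 ratio -0.79), with a UMI in 65.9% and 44.7% of cells. The median over the 16 was -0.01, against -0.02 for all astrocyte genes. Against the shares of genes called in each class, these counts are not a result about the lists.

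Genes with the most similar pattern were listed as a description, by Pearson correlation of log2(CPM + 1) over clusters that share these libraries. For Nts over 31 neuron clusters the closest were Camta2 (r = 0.66), 9330182L06Rik, Npy1r, Mllt11 and Ptprf, the last at 0.63. For Ntsr1 they were Actr3 (0.74), Snx27, Tekt5, Kcnn2 and Cpped1 (0.61). For Ntsr2 over 24 clusters of all cells they were Slc4a4 (0.99), Cldn10, Acsbg1, Slc7a10 and Slc25a18 (0.98). The Nts and Ntsr1 values are far from the close match of Ntsr2 with other astrocyte genes. In the authors' deposited table for clusters of both libraries together, Nts is listed as higher in 7 clusters and lower in 21, Ntsr2 as higher in 1 cluster, and Ntsr1 in none.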

How the data were processed

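Data from 2 droplet single-cell libraries of the preoptic area were analysed, 1 per condition. The deposited matrices give UMI counts (genes by barcodes). They were written by Cell Ranger, software version 3.0.2 per the file headers, against mm10, and Seurat 4.0.4 is named in the submitters' processing notes. The authors' deposited cluster tables give a log fold change (taken as natural log, a base that their headers leave unstated) and p-values per cluster, of which only the direction was used. Total UMIs were 132191585 (SD) and 123500649 (SD+RS).

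Kept were cells of 500 or more genes with less than 20% of UMIs from mitochondrial genes, and doublets called by scrublet (578 and 294 cells, catching 63.2% and 59.9% of simulated ones) were removed. Cells were clustered in scanpy 1.11.5 (2000 variable genes, 40 components, 20 neighbours, Leiden resolution 1, and 1.5 among neurons), leaving out the 3 genes, activity and clock genes and mitochondrial, ribosomal and sex genes. Classes were named from fixed markers, and cluster names give leading genes. Thresholds for naming were set after the data were seen. Neuron-like clusters with a median depth below that of neurons divided by 3 stayed unnamed. Intervals are exact Poisson, Clopper-Pearson or conditional binomial at 95%; PCR copies are removed by UMIs, and intervals cover counting only. Scripts were tested on simulated data. Named were the 3 genes, fixed lists of pathway, peptide and activity genes, the 5 clusters highest for each gene, and each cluster whose ratio passed 1.5-fold with an interval excluding 0. The genes and lists were chosen with earlier results of these data known. Alternatives covered filters, doublets, denominators, sex calls, thinning and clustering. All 3 genes were matched in RefSeq promoter windows; proteins were not used here. Ntsr2 ranks among neuron clusters rest on few UMIs and were not described. One library per condition allows no test.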

Additional observations from a re-analysis of the deposited data

How the results depend on the processing

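The log2 ratio of Nts in neurons, 0.22, stayed positive under all 8 alternatives. It was 0.28 as a mean over cells, 0.46 with Xist-only cells, 0.16 with Y-linked-only cells and 0.062 with cluster shares held equal, the last chosen after seeing the data. The Ntsr1 ratio was -0.12 and became -0.24 with Xist-only cells, with an interval below 0, and 0.10 with Y-linked-only cells. For Ntsr2 in astrocytes, 0.15 became 0.045 with Y-linked-only cells and 0.12 with astrocyte cluster shares held equal, also chosen after seeing the data. For Ntsr2 in neurons, -0.88 became -1.24 with Y-linked-only cells. It was -1.10 without neuron clusters led by astrocyte or oligodendrocyte markers, also chosen after seeing the data. Sleep state and sex mix cannot be told apart beyond these values. The core gene ratio in Nts-rich neurons, 0.10, became 0.19 at 10 or more Nts UMIs and turned negative at 40 or more (-0.13), without the cluster led by Gal, Tac2 and Cartpt (-0.33) and in Y-linked-only cells (-0.28); that cluster's removal is the change in that setting, and for the others the cause was not tested. The highest Nts cluster stood at 4491 CPM as a mean of both libraries, and at 3448 with neuron resolution 1.0, 5016 with resolution 2.0 and 4742 with the 3 genes kept in the clustering; it held 72.8% to 85.6% of the same cells. The highest Ntsr1 cluster went from 35.6 to 27.0 CPM at resolution 1.0, where it still held 100% of the same cells. The count of clusters with an Nts ratio past 1.5-fold, 10 of 23, was 6 of 16 with Xist-only cells and 8 of 13 with Y-linked-only cells. It was 9 of 23 with stricter cell filters and 8 of 19 without the highest cell of each cluster and library. These alternatives for the count were chosen after seeing the data. Thinning further, to 1000 UMIs per neuron, gave Nts shares of 16.2% and 17.9%. No neuron had more than 9 Ntsr1 UMIs. No paired analysis was possible because each condition is 1 library and no result comes from a test.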

Other observations

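The shallow neuron-like cluster that was left without a class held 5.98% of kept cells in SD and 0.850% in SD+RS, at median depths of 3340 and 2334 UMIs. It carried 928 Nts UMIs in SD (406 CPM) and 28 in SD+RS (151 CPM), with a UMI in 22.7% and 20.6% of its cells. Its Ntsr1 count was 31 in SD and 0 in SD+RS.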
